A study of Mus musculus with 24 samples.

Results

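Proteasome genes were followed in the livers of mice with or without the amino acid sensor GCN2, on a diet with or without leucine, at circadian times CT03 and CT15. Members were the genes whose symbol is Psma, Psmb, Psmc, Psmd, Psme, Psmf or Psmg followed by a number, apart from the immunoproteasome subunits Psmb8, Psmb9 and Psmb10. The rule found 46 of the 15741 genes in the deposited tables, and all 46 had at least 1 read in each of the 24 libraries. They comprise 8 alpha and 7 beta subunits of the 20S core, 6 ATPases and 11 other subunits of the 19S cap, 3 chaperones of 19S assembly, 4 chaperones of core assembly, 5 activator genes, the inhibitor gene Psmf1, and Psmc3ip. Psmc3ip meets the naming rule but encodes a partner protein of PSMC3 known from meiotic recombination, and Psma8 encodes an alpha subunit of the testis, so the label does not hold for Psmc3ip and the constitutive 26S subunits below are the other 31 of the first 4 classes, without Psma8.

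Liver RNA was sequenced from 8 groups of 3 mice. Whole-body GCN2 knockout mice (KO) ate the leucine-devoid diet (LeuD) or the Control diet and were killed at CT15 or CT03, which gave the groups KO LeuD CT15, KO LeuD CT03, KO Control CT15 and KO Control CT03. Wild-type mice (WT) formed the groups WT LeuD CT15, WT LeuD CT03, WT Control CT15 and WT Control CT03 in the same way. All mice were housed singly, had 2 days on the Control diet under a 12-h light-dark cycle, changed diet (or not) as the lights went off, and from 24 h later lived for 8 days in darkness, in which they were killed. The GCN2 deletion is in every tissue, and the sources used here state no strain, sex or age. The study asked how loss of GCN2 and of dietary leucine shape the difference between times of day in liver RNA.

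The proteasome degrades proteins that carry ubiquitin chains. Its core is a barrel of alpha and beta rings, with the proteolytic sites in Psmb5, Psmb6 and Psmb7, and its cap binds the chain, removes it, and unfolds and threads the substrate with a ring of ATPases. The subunits are built in fixed proportions, and their genes are known to be raised together by the transcription factor NFE2L1 when proteasome activity falls short. In liver the proteasome and autophagy both return amino acids from protein, and GCN2 is the kinase that answers uncharged transfer RNA by phosphorylating the translation factor eIF2.

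Libraries held 34137121 to 44884200 reads in listed genes. Levels below are normalized counts on 1 scale over the 24 libraries, and changes are log2 differences of normalized count + 1 with their SE, tested by limma within the 6 libraries of a comparison and adjusted over all genes; genes below an adjusted p of 0.05 count as called. With edgeR on the recovered reads, 0 members were called wherever limma called 0. The limma p-values set each difference against the spread between the 3 mice of each group, a spread moderated over all genes. Eif2ak4, which encodes GCN2, had 244 to 464 normalized counts in the 12 KO libraries and 288 to 350 in the 12 WT libraries, and reads summed over a gene say nothing of a lost exon, so it does not check the genotype label. The 6 hepatocyte markers were high in every library, at a sum of 80293 to 180019 RPM (reads scaled to a common library total). Pancreas acinar markers summed to 13767 RPM in KO LeuD CT03 replicate 1, 7345 in KO LeuD CT15 replicate 3, 4030 in WT LeuD CT15 replicate 1, 613 in KO Control CT15 replicate 1 and 246 in KO Control CT03 replicate 3, and to 68.0 or less in the other libraries. In whole liver, fewer cells of a type and less RNA per cell cannot be told apart.

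Per unit of exon length, core subunits reached the highest levels. Over the 24 libraries Psmb5, the chymotrypsin-like site, had 106 ± 13.5 RPKM (RPM per kilobase of exon), and Psma6 had 97.6 ± 10.6 (SD, n = 24 libraries each). The medians were 41.1 RPKM over the 7 beta subunits, 40.1 over the 6 ATPases, 33.4 over 7 alpha subunits and 27.4 over the 11 other cap subunits. The lowest of those 11 was Psmd1, a large scaffold of the cap, at 13.3 ± 2.17 RPKM. Chaperone genes stood lower, at 6.46 RPKM as the median of the cap chaperones and 8.54 RPKM as that of the core chaperones. Psma8, with 0.37 ± 0.11 RPKM, and Psmc3ip, with 0.31 RPKM, were near the floor. Lengths came from another annotation than the counts, so orders between neighbours of like level are approximate. Each length joins the exons of all transcripts of a gene, which gave 7265 bases for Psmd1, 7248 for the cap chaperone Psmd9 and 899 for Psmb5. A long union lowers the RPKM, so the ranks and class medians depend on it. In normalized counts Psmd1, at 2967 to 5669 over the libraries, was above Psmd14, at 938 to 2024.

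Levels of the 31 constitutive subunits differed between groups and libraries. The ratio of the highest to the lowest group mean ran from 1.10 to 1.94, with a median of 1.39. That ratio was not compared with the ratio of other genes. Within groups the SD of a subunit had a median of 0.144 on the log2 scale, against 0.225 over the 11947 genes with a mean of at least 50 normalized counts. Those genes were not matched to the subunits for level, on which a log2 SD depends. The lower SD is therefore not shown to be a trait of the subunits. For 25 of the 31 the lowest group mean lay in WT mice on LeuD, and for 17 of them in WT LeuD CT15. The share of all genes with their lowest mean there was not computed, so these counts cannot be judged against it. The summed level of the 31 was 120349 to 134358 normalized counts in KO LeuD CT15, 113728 to 129650 in KO LeuD CT03, 115417 to 126499 in KO Control CT15 and 114319 to 150763 in KO Control CT03. In WT mice it was 103241 to 104330 in WT LeuD CT15, 106352 to 113847 in WT LeuD CT03, 108687 to 122505 in WT Control CT15 and 122362 to 125034 in WT Control CT03. The 3 WT LeuD CT15 libraries were the lowest of the 24 on this scale. In RPM they had 2523 to 2687, and there KO LeuD CT15, at 2478 to 2972, reached as low. KO Control CT03 replicate 3 stood apart at the other end: all 31 subunits were above their own mean there, by a median of 0.36 log2, with 12 and 22 of 31 above it in its mates. Among the genes with a mean of at least 50, 50.8% were above their own mean in that library. In its mates the shares were 50.4% and 51.5%.

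**Figure D1:**
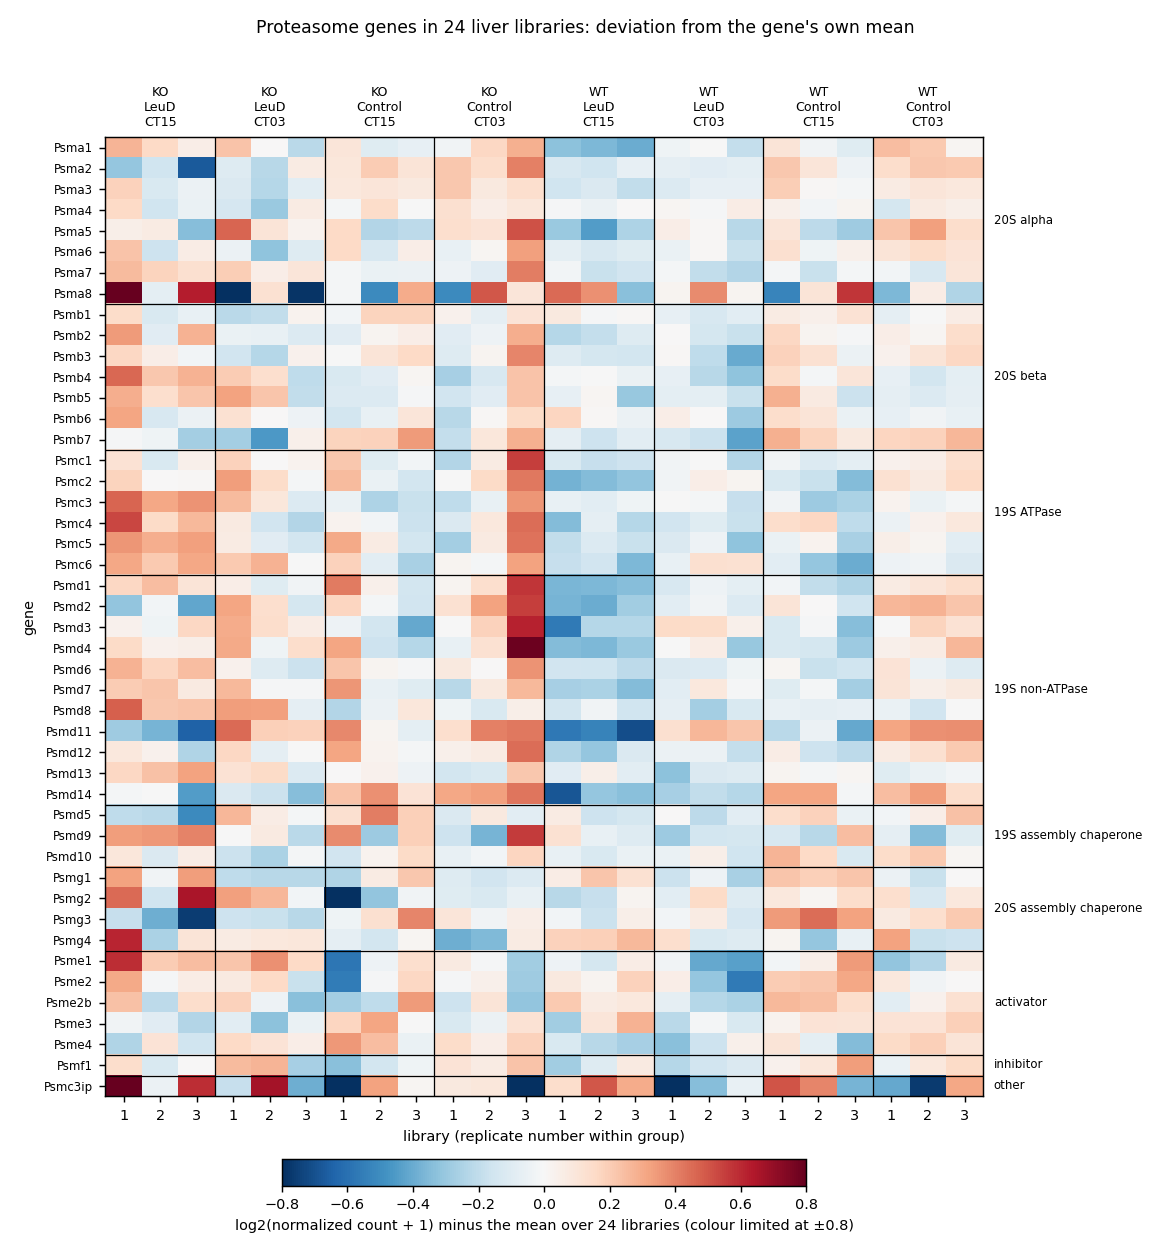
Each square is the log2(normalized count + 1) of 1 gene (rows, grouped by role) in 1 library (columns, grouped by genotype, diet and time) minus the gene's mean over 24 libraries, with red above and blue below. The core and cap rows of WT LeuD CT15 are mostly blue, and KO Control CT03 replicate 3 is red in all 31 constitutive 26S rows.

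In WT mice nearly all members were lower on LeuD than on the Control diet, by a small amount. At CT03 the 46 members had a median change of -0.16, with 42 of 46 below 0, against a median of -0.01 over all genes. At CT15 the median was -0.15, with 40 of 46 below 0, again against -0.01. Of the 46, 38 were below 0 at both times. This direction held under each scaling tried, with at most 6 of 46 members above 0, and with 5 of 46 above 0 at CT15 without WT LeuD CT15 replicate 1, the library with acinar transcripts. Without WT Control CT15 replicate 1 the CT15 median was -0.09. Hepatocyte markers summed to 92019 to 102498 RPM on LeuD and 93217 to 100610 on Control at CT03, and to 109266 to 133365 on LeuD and 80293 to 114250 on Control at CT15. The 5 erythroid markers did not overlap between diets, with sums of 121 to 150 RPM on LeuD and 229.7 to 460.2 on Control at CT03, and of 78.1 to 175 on LeuD and 212 to 338 on Control at CT15. Nor did the acinar markers, of which 12 of 13 were found, at 35.7 to 49.0 RPM on LeuD and 28.2 to 32.1 on Control at CT03, and at 33.4 to 4030 on LeuD and 9.26 to 30.4 on Control at CT15. The part of these markers in the result was not tested. Few single members passed the test: 1 was called at CT03, where 2.24% of all genes were called, and 0 at CT15, where 0.186% were, with 9 members at an unadjusted p under 0.05 at CT15 (13% of all genes) and 12 at CT03 (17.8%).

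Many members had libraries that did not overlap between diets. At CT03 all 3 LeuD libraries lay below all 3 Control libraries for 21 of 46 members, against 11.9% of all genes, and above them for 0, against 12.1%. At CT15 they lay below for 16 of 46, against 9.53% of genes, and above for 1, Psmg4, against 9.33%. At both times they lay below for 13 members, against 3.34% of genes. These were the alpha subunits Psma1, Psma2, Psma3 and Psma6, the beta subunits Psmb2, Psmb3 and Psmb7, the ATPase Psmc1, the cap subunits Psmd1, Psmd2, Psmd11 and Psmd14, and the core chaperone Psmg3, which were picked out after their values were seen. By class, all 7 beta subunits were below 0 at both times, and the 11 non-ATPase cap subunits had 10 below 0 at CT03 and 11 at CT15. The 6 ATPases had medians of -0.13 at CT03 and -0.08 at CT15.

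Psmd14 encodes the cap's deubiquitinase, which cuts the ubiquitin chain off the substrate, and it was the member with the largest decrease in WT mice. At CT03 it had 1252, 1316 and 1287 normalized counts on LeuD, against 1787, 1902 and 1664 on the Control diet. The groups did not overlap, and the change was -0.47 ± 0.09 (limma, adjusted p = 0.0356). At CT15 it had 938, 1218 and 1194 on LeuD, against 1875, 1879 and 1491 on Control. Here too the groups were apart, and the change of -0.65 ± 0.14 was not called (adjusted p = 0.146). In KO mice Psmd14 had 1391, 1339 and 1188 on LeuD at CT03, against 1867, 1888 and 2024 on Control (-0.57 ± 0.12, adjusted p = 0.209). At CT15 KO mice had 1492, 1504 and 1103 on LeuD, against 1769, 1943 and 1629 on Control (-0.40 ± 0.17, adjusted p = 0.309; -0.25 without KO LeuD CT15 replicate 3). Psmd14 was thus lower on LeuD in all 4 comparisons, which share no library, and so were Psma2 and Psmg3; 3 of 46 members had this pattern without overlap, against 0.33% of genes, and they too were chosen after their values were seen. The call at CT03 did not survive the loss of any 1 of the 6 libraries, with changes of -0.52 to -0.43 and adjusted p of 0.0533 to 0.121 without WT Control CT03 replicate 1, 2 or 3 or WT LeuD CT03 replicate 1, 2 or 3.

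Other WT members came near the threshold at CT03. Psmb7, the trypsin-like site, had 4623, 4475 and 3753 normalized counts on LeuD, against 5691, 5739 and 6059 on Control (-0.45 ± 0.10, adjusted p = 0.061). Psmd2, a cap subunit that receives ubiquitin shuttle proteins, had 6052, 6306 and 5967 on LeuD, against 7725, 7802 and 7512 on Control (-0.33 ± 0.08, adjusted p = 0.0757). Both sets of libraries were well apart. The other catalytic subunits had smaller values. Psmb5 had -0.03 ± 0.08 at CT03 and -0.18 ± 0.14 at CT15, and Psmb6, the caspase-like site, had -0.03 ± 0.11 and -0.02 ± 0.10, with overlapping groups at both times. At CT15 Psma1, an alpha subunit, had 3108, 3037 and 2969 on LeuD, against 4185, 3835 and 3653 on Control (-0.35 ± 0.09, adjusted p = 0.193). The most positive WT changes were those of the scarce Psma8 at CT03 (0.32 ± 0.26) and of Psmg4, a core chaperone, at CT15 (0.33 ± 0.14, adjusted p = 0.376).

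**Figure D2:**
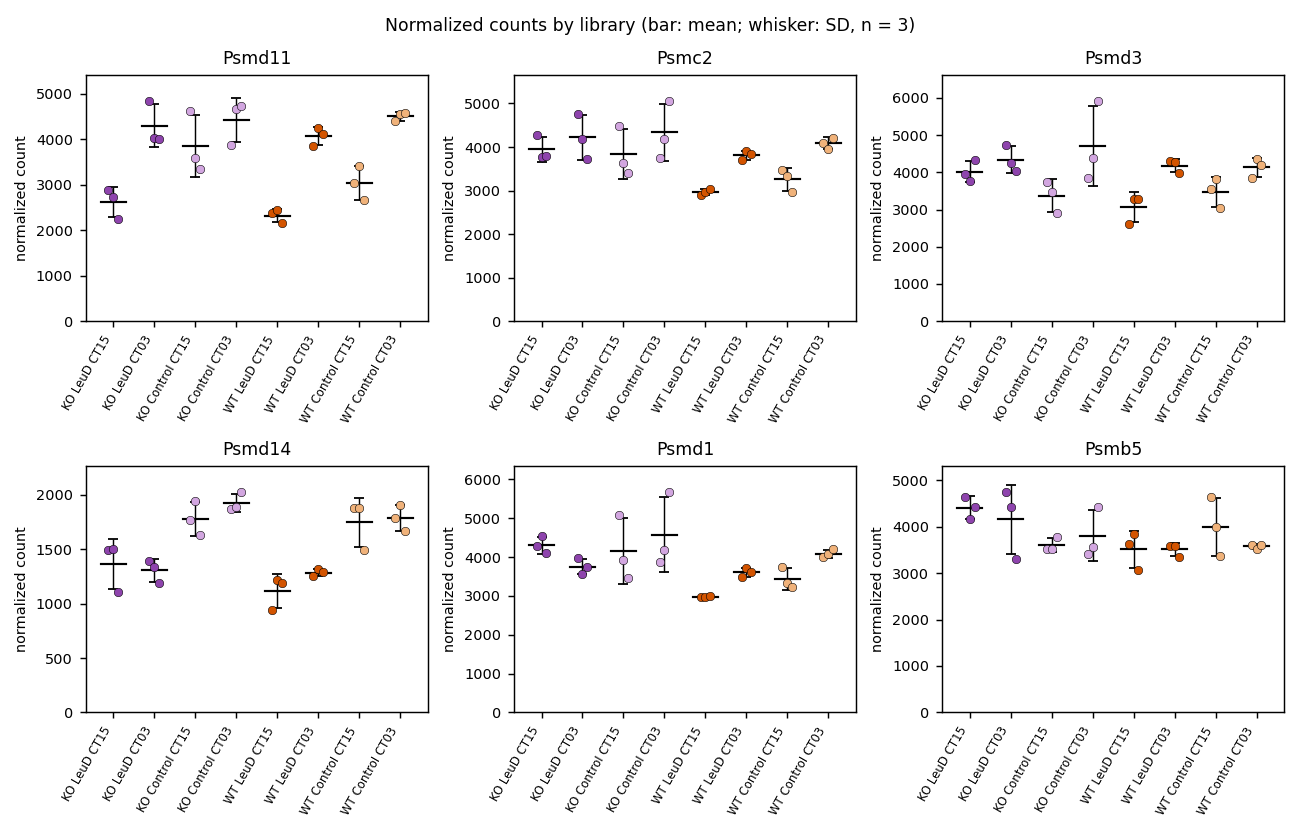
Normalized counts (y axis, from 0) of 6 members in the 8 groups (x axis); points are libraries, bars are means and whiskers the SD of 3 mice. Psmd11 is low in the CT15 groups on LeuD, Psmd14 in the 4 LeuD groups, Psmd1 in WT LeuD CT15, and Psmc2 in the WT CT15 groups of both diets, while Psmb5 groups overlap widely.

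The promoter next to Psmd14 is shown because this gene was the one called for diet. The bases are the 250 before the RefSeq start on the plus strand of GRCm38.p6, chr2:61711444-61711693, another build than the files' GRCm39, and the capitals mark a CCAAT box read on the opposite strand, the only match of the 5 motifs searched, 159 to 155 bases before the start.
Psmd14: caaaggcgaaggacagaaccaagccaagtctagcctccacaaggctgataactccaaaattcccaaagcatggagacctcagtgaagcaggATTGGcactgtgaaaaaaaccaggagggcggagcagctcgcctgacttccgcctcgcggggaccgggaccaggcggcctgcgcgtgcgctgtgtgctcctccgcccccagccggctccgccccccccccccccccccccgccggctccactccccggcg

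In KO mice the diet changes had no common direction. At CT03 the members' median was -0.08, with 30 of 46 below 0, and it was -0.0039 without KO Control CT03 replicate 3 and -0.15 without KO Control CT03 replicate 1. At CT15 the median was 0.10, with 30 of 46 above 0, but -0.02 with 22 of 46 above 0 when libraries were scaled by their total reads, which put the median of all genes at -0.12, and it was 0.05 without KO Control CT15 replicate 2 and 0.17 without KO LeuD CT15 replicate 2. No member was called at CT03, where 0% of genes were, or at CT15, where 0.0202% were; at an unadjusted p under 0.05 there were 3 members at CT03 (14.6% of genes) and 11 at CT15 (16%). Non-overlapping libraries were found at CT03 for 3 members higher on LeuD (9.39% of genes) and 5 lower (9.79%), and at CT15 for 10 higher (11.9%) and 7 lower (11.1%). The CT15 shares were spread over roles: 5 of 6 ATPases were above 0, with a median of 0.28, while the alpha subunits had a median of 0.01. Hepatocyte markers did not overlap between diets in KO mice, at 139792 to 147393 RPM on LeuD and 105232 to 117033 on Control at CT03, and at 156008 to 180019 on LeuD and 113934 to 130332 on Control at CT15. At CT03 the erythroid markers, at 82.8 to 129 RPM on LeuD and 276 to 381 on Control, and the 4 cholangiocyte markers, at 15.6 to 16.2 on LeuD and 6.53 to 11.6 on Control, were also apart. The part of these markers in the diet changes of KO mice, and in their difference from those of WT mice, was not tested.

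In KO mice at CT15 the values of single members lay on both sides of 0. Psmc3, an ATPase of the ring, had 6227, 5598 and 5794 normalized counts on LeuD, against 4349, 3801 and 3986 on Control (0.53 ± 0.13, adjusted p = 0.145). Psma2, an alpha subunit, had 2042, 2266 and 1585 on LeuD, against 2691, 2915 and 2718 on Control (-0.52 ± 0.17, adjusted p = 0.206). Psmd11 was also lower, with 2893, 2728 and 2252 on LeuD, against 4618, 3581 and 3342 on Control (-0.55 ± 0.18, adjusted p = 0.206). In each of these 3 the libraries were apart. Among the chaperones Psmg3 had the most negative value (-0.61 ± 0.21, adjusted p = 0.223) and Psmd5, which helps assemble the ATPase ring, had -0.56 ± 0.16 (adjusted p = 0.17), while Psmg2 had 0.69 ± 0.28 (adjusted p = 0.286) with overlapping groups. The most positive value was that of the scarce Psmc3ip (0.90 ± 0.52, and 0.46 without KO LeuD CT15 replicate 1), which at CT03 was also the most positive (0.38 ± 0.50), and the most negative at CT03 was Psma8 (-0.68 ± 0.46). A limma fit of all 24 libraries, which pools the spread, called 7 members at CT15, Psmc3, Psmg2 and Psmd8 higher and Psma2, Psmd11, Psmd5 and Psmg3 lower, and Psmd14 at CT03. The shares of all genes called in that fit are not given, so these counts cannot be judged against them. The shares given above belong to the fits of 6 libraries.

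The diet change was tested against genotype directly. At CT15 the difference of the changes, KO minus WT, had a median of 0.24 over the members, with 35 of 46 above 0, against 0.00 over all genes; scaled by total reads it was 0.17 with 33 of 46 above 0, against -0.07 over all genes. No member was called (0.0206% of genes were), and 10 had an unadjusted p under 0.05, all of them positive, against 12.1% of genes in either direction and 6.53% that were positive. The lowest p was that of Psma1, at 0.53 ± 0.15 with a 95% interval of 0.21 to 0.85 (limma, adjusted p = 0.179). Psmc4, an ATPase, had 0.61 ± 0.20 with an interval of 0.19 to 1.04 (adjusted p = 0.252), Psmg2 had 0.90 ± 0.32 with 0.21 to 1.59 (adjusted p = 0.297), and the most negative was Psmd5 at -0.39 ± 0.18. For Psmd14 the interval reached 0, at 0.25 ± 0.23 with -0.24 to 0.74. At CT03 the median difference was 0.09, with 31 of 46 above 0 (0.19 without KO Control CT03 replicate 3 and -0.013 without KO Control CT03 replicate 1), 0 called (0% of genes) and 1 at an unadjusted p under 0.05 (13.2%); the extremes were the scarce Psma8 (-1.004 ± 0.53) and Psmc3ip (0.50 ± 0.65).

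**Figure D3:**
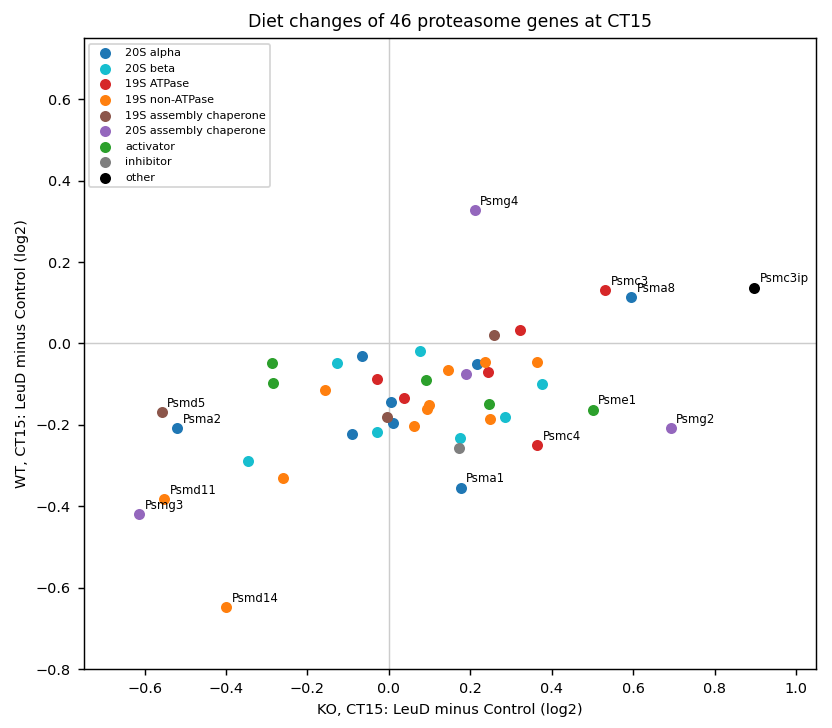
The LeuD minus Control change at CT15 on the log2 scale in KO mice (x axis) and WT mice (y axis) for the 46 members, coloured by role. Most lie below 0 on the WT axis; 24 are above 0 in KO and below 0 in WT, 16 are below 0 in both and 6 above 0 in both.

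On LeuD at CT15 the members were mostly higher in KO than in WT livers. The median change was 0.27, with 39 of 46 above 0, against 0.01 over all genes. Scaled by total reads the median was 0.09 with 26 of 46 above 0, but that scaling put the median of all genes at -0.16, and the members lay above it there too. Without KO LeuD CT15 replicate 1 the median was 0.16. The KO libraries lay above all WT libraries for 21 of 46 members, against 13% of genes, and below them for 3, against 11.6%. In the cap, all 6 ATPases had KO libraries above WT libraries, with changes of 0.17 to 0.53, and the 11 non-ATPase cap subunits were all above 0, at 0.10 to 0.53, with 7 not overlapping. The 7 beta subunits ran from -0.04 to 0.35. The 19S ATPases summed to 24889 to 28350 normalized counts in KO LeuD CT15 and 19789 to 20350 in WT LeuD CT15. Hepatocyte markers moved with this comparison, at a sum of 156008 to 180019 RPM in KO LeuD CT15 and 109266 to 133365 in WT LeuD CT15. The 4 stellate markers were also apart, at 175 to 261 RPM in KO LeuD CT15 and 271 to 287 in WT LeuD CT15, as were the 4 cholangiocyte markers, at 11.2 to 19.3 in KO LeuD CT15 and 8.38 to 10.9 in WT LeuD CT15. The part of these markers in the result was not tested.

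Of the 46, 1 member passed the test there, where 1.89% of genes did, and 19 had an unadjusted p under 0.05, all higher in KO, against 18.7% of genes in either direction and 10.5% that were higher. The called gene was Psmd1, the cap scaffold, with 4274, 4536 and 4103 normalized counts in KO, against 2967, 2970 and 3008 in WT. The WT libraries were close to each other and below all KO libraries, and the change was 0.53 ± 0.10 (limma, adjusted p = 0.045). Psma1, with 4724, 4353 and 4056 in KO against 3108, 3037 and 2969 in WT, came close (0.52 ± 0.11, adjusted p = 0.0549). Among the ATPases Psmc5 had 0.49 ± 0.10 (adjusted p = 0.0554), Psmc6 0.51 ± 0.11 (adjusted p = 0.061) and Psmc4 the largest change, 0.53 ± 0.14 (adjusted p = 0.0921). The most negative was Psmg3 (-0.39 ± 0.18, and -0.24 without KO LeuD CT15 replicate 3). The call of Psmd1 was lost without any 1 of the 6 libraries (KO LeuD CT15 replicate 1, 2 or 3, WT LeuD CT15 replicate 1, 2 or 3), at adjusted p of 0.0578 to 0.186 and changes of 0.49 to 0.56, and it was also lost with TMM factors (0.0511), edgeR (0.0664), scaling by total reads (0.191) and without the libraries above 200 RPM of acinar markers (0.265). The fit of all 24 libraries called 8 members, all higher in KO: Psma1, Psmc3, Psmc4, Psmc6, Psmd1, Psmd6, Psmd7 and Psmd8. The share of all genes called in that fit is not given, and the 1.89% above belongs to the fit of 6 libraries.

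The promoter of Psmd1 is shown as that of the gene called for genotype, with the 250 bases before the start on the plus strand of GRCm38.p6 at chr1:86064369-86064618. None of the 5 motifs searched was in these letters, so it has no capitals.
Psmd1: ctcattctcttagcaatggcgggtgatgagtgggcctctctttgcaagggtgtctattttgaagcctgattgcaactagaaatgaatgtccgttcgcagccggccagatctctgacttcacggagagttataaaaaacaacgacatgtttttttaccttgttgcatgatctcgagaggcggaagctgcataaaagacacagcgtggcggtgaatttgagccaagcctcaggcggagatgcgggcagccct

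In the other genotype comparisons 0 members were called. On LeuD at CT03 the median was 0.10, with 36 of 46 above 0 (0.05 without KO LeuD CT03 replicate 1, the library with the most acinar transcripts), 0.0416% of genes called, 3 members at an unadjusted p under 0.05 (13.7% of genes), and 4 members higher (9.64% of genes) and 1 lower (9.73%) without overlap. Hepatocyte markers summed to 139792 to 147393 RPM in KO and 92019 to 102498 in WT there, and cholangiocyte markers to 15.6 to 16.2 in KO and 10.7 to 14.6 in WT; their part in the result was not tested. Psme1, a subunit of the ring-shaped activator that interferon is known to raise, had 3589, 3958 and 3437 in KO, against 3012, 2313 and 2268 in WT (0.54 ± 0.14, adjusted p = 0.239). Without KO LeuD CT03 replicate 3 this comparison called 4 members higher in KO, Psme1 among them (adjusted p = 0.0431). The share of all genes called in that fit is not given. Psme1 was not called without any other single library (limma, adjusted p of 0.274 to 0.723). Psmd1 overlapped between genotypes here (0.06 ± 0.10), and the most negative member was the scarce Psma8 (-0.79 ± 0.40). On the Control diet the medians were 0.03 at CT15 and 0.04 at CT03, and both turned negative, at -0.07, when scaled by total reads (all genes at -0.10 and -0.11). At CT15 it was -0.011 without WT Control CT15 replicate 3 and -0.0078 without KO Control CT15 replicate 1. At CT03 it was -0.06 with 9 of 46 above 0 without KO Control CT03 replicate 3, against 28 of 46 with it. No member had an unadjusted p under 0.05 at either time (5.49% of genes at CT15 and 8.18% at CT03), and 0.0798% and 0.0136% of genes were called. Without overlap, 0 members were higher (6.52% of genes) and 3 lower (6.73%) at CT15, and 1 higher (7.45%) and 1 lower (7.6%) at CT03. The extremes at CT15 were Psmd11 (0.33 ± 0.17) and Psmg2 (-0.46 ± 0.21), which were 0.19 and -0.25 without KO Control CT15 replicate 1. At CT03 they were Psma8 (0.20 ± 0.33) and Psmg4 (-0.23 ± 0.21), of which Psma8 was -0.031 without KO Control CT03 replicate 2 and Psmg4 -0.061 without WT Control CT03 replicate 1. On Control the markers that did not overlap between genotypes were those of macrophages (285 to 345 RPM in KO and 419 to 573 in WT) and lymphocytes (13.6 to 16.6 in KO and 16.7 to 20.4 in WT) at CT15, of hepatocytes at CT03 (105232 to 117033 in KO and 93217 to 100610 in WT), and of acinar cells at both times (37.6 to 613 in KO and 9.26 to 30.4 in WT at CT15, 36.7 to 246 in KO and 28.2 to 32.1 in WT at CT03); their part in these values was not tested.

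**Figure D4:**
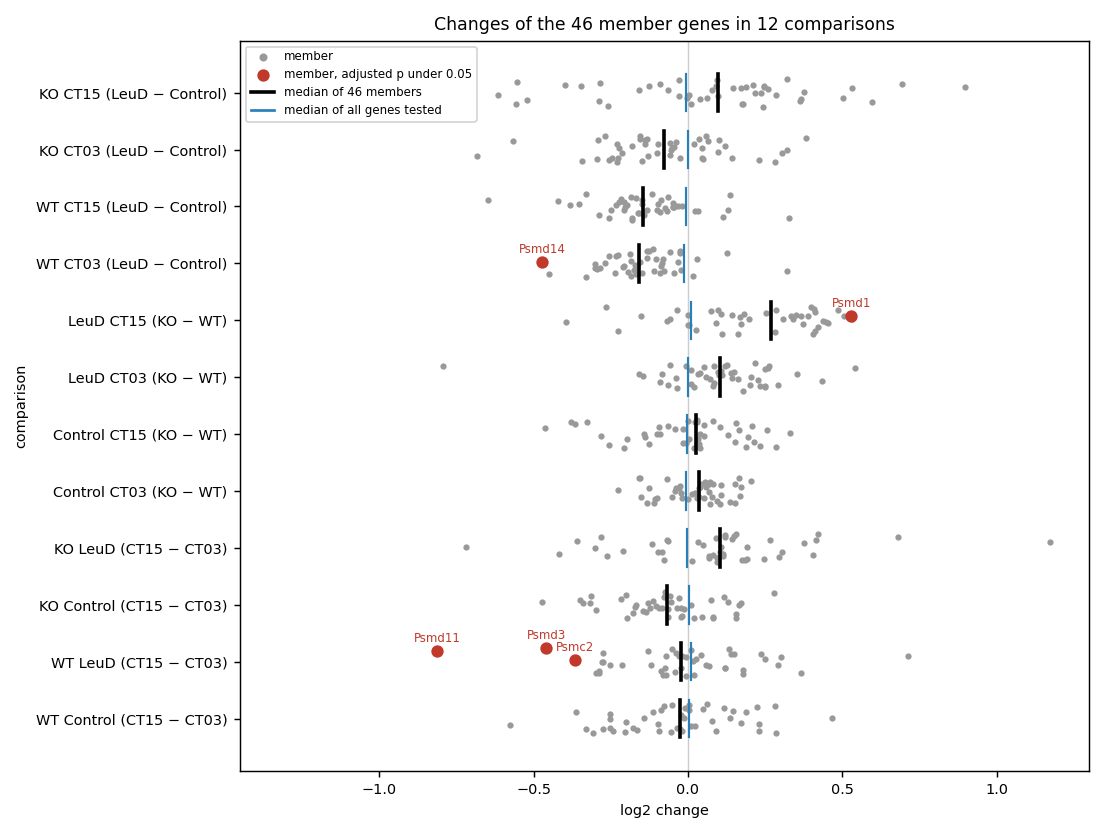
Log2 changes (x axis) of the 46 members in the 12 comparisons (rows, with the direction in brackets); black ticks are medians of the members, blue ticks medians of all genes tested, and red points members with an adjusted p under 0.05. The black tick is left of the blue one in both WT diet rows and right of it for KO against WT on LeuD at CT15.

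Psmd11 was the member with the largest decrease at CT15 in both WT comparisons and in KO mice on LeuD. Its product is a cap subunit that touches both the core and the ATPase ring and whose loss in yeast and mammalian cells is known to leave 26S proteasomes poorly assembled. In WT mice on LeuD it had 2372, 2441 and 2155 normalized counts at CT15, against 3860, 4241 and 4115 at CT03. The groups were far apart, and the change was -0.81 ± 0.09 (limma, adjusted p = 0.00159). On the Control diet WT mice had 3044, 3418 and 2662 at CT15, against 4394, 4557 and 4577 at CT03 (-0.57 ± 0.11, adjusted p = 0.0528). In KO mice on LeuD it had 2893, 2728 and 2252 at CT15, against 4843, 4029 and 4017 at CT03 (-0.72 ± 0.15, adjusted p = 0.0842). On Control, KO mice had 4618, 3581 and 3342 at CT15, against 3871, 4675 and 4728 at CT03, and here the groups overlapped (-0.22 ± 0.17, adjusted p = 0.645). It was the only member lower at CT15 without overlap in at least 3 of the 4 comparisons, against 4.74% of genes. The call in WT on LeuD held under each alternative and without each of the 6 libraries in turn (adjusted p of 0.00489 to 0.0143).

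Differences between these time changes were not called for Psmd11. In WT mice LeuD minus Control gave -0.24 ± 0.14 with a 95% interval of -0.53 to 0.06 (limma, adjusted p = 0.843), and in KO mice -0.50 ± 0.23 with -0.99 to -0.01 (adjusted p = 0.764). On Control, KO minus WT gave 0.36 ± 0.20 with -0.08 to 0.79 (adjusted p = 0.983), and 0.22 without KO Control CT15 replicate 1.

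In WT mice on LeuD 2 more members were called, both lower at CT15, so that 3 of 46 passed where 9.61% of genes did, and 12 of 46 had an unadjusted p under 0.05 where 25.3% of genes did. Psmc2, an ATPase of the ring, had 2898, 2964 and 3027 at CT15, against 3702, 3905 and 3836 at CT03 (-0.37 ± 0.08, adjusted p = 0.0271). Psmd3, a cap subunit, had 2603, 3295 and 3291 at CT15, against 4294, 4273 and 3977 at CT03 (-0.46 ± 0.11, adjusted p = 0.0406). Neither overlapped between times. These calls were less stable: Psmc2 was lost without any 1 of the 6 WT LeuD libraries (adjusted p from just above 0.05 to 0.125), and Psmd3 without any but WT LeuD CT15 replicate 3 (0.0646 to 0.142 for WT LeuD CT15 replicates 1 and 2 and WT LeuD CT03 replicates 1, 2 and 3, and 0.0458 without WT LeuD CT15 replicate 3), and edgeR gave Psmd3 0.0505. WT LeuD CT15 replicate 1, which carried acinar transcripts, was the lowest for Psmd3; without it the change was -0.35. Without overlap, 8 members were higher at CT15 (15.1% of genes) and 12 lower (16.2%), and the median was -0.02. The lower ones were mostly of the cap, 9 of its 17 subunits, and the most positive member was Psmc3ip (0.71 ± 0.33). Hepatocyte markers were apart between these times, at 109266 to 133365 RPM at CT15 and 92019 to 102498 at CT03, and their part in the result was not tested.

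The promoters of Psmd11 and Psmc2 are shown as those of genes called for time; both run on the plus strand of GRCm38.p6, at chr11:80428365-80428614 and, for the first of 2 starts of Psmc2, at chr5:21785025-21785274. Capitals in Psmc2 mark a CCAAT box 28 to 24 bases before the start, and the Psmd11 letters hold none of the 5 motifs.
Psmd11: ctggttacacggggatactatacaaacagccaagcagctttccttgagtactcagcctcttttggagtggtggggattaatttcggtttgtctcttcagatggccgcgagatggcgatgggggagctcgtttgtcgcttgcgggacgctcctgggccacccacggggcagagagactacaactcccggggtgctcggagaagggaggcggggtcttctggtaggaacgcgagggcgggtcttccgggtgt
Psmc2: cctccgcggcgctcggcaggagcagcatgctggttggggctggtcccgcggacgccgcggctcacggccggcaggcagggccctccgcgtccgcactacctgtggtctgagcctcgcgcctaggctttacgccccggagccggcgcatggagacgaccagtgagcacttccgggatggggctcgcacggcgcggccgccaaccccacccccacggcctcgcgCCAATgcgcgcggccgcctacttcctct

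The other 3 time comparisons had 0 calls. In WT mice on Control, where 1.42% of genes were called, 9 members had an unadjusted p under 0.05 (17.1% of genes), and 6 members were higher at CT15 (11.7% of genes) and 9 lower (12.2%) without overlap, with a median of -0.02. Besides Psmd11, Psmc2 had 3468, 3337 and 2969 at CT15, against 4099, 3958 and 4218 at CT03 (-0.33 ± 0.09, adjusted p = 0.133). Psma5, an alpha subunit, had 2657, 2143 and 2034 at CT15, against 2896, 3109 and 2739 at CT03 (-0.36 ± 0.12, adjusted p = 0.182), and the most positive was Psmc3ip (0.47 ± 0.42). In both WT comparisons 6 members were lower at CT15 without overlap, Psma5, Psmc2, Psmd1, Psmd2, Psmd7 and Psmd11, against 6.23% of genes, and 4 were higher, Psmb4, Psmd13, Psme2b and Psmg1, against 5.43%, all picked out after their values were seen.

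In KO mice no member was called between times on either diet. On LeuD the median was 0.10, with 33 of 46 above 0 (0.04 without KO LeuD CT15 replicate 1), but -0.10 with 10 of 46 above 0 when scaled by total reads, a scaling that put all genes at -0.21. There 0.805% of genes were called, 8 members had an unadjusted p under 0.05 (16.2% of genes), and 8 members were higher (11.1% of genes) and 2 lower (10.8%) at CT15 without overlap. Psmg1, a core chaperone, had 1289, 1013 and 1300 at CT15, against 894, 885 and 884 at CT03 (0.42 ± 0.15, adjusted p = 0.222), and its CT15 libraries lay above the CT03 ones in both WT comparisons too. Psmd5 had 1267, 1256 and 1024 at CT15, against 1748, 1521 and 1444 at CT03 (-0.42 ± 0.15, adjusted p = 0.236), and the scarce Psma8 had the most positive value (1.17 ± 0.46). Hepatocyte markers summed to 156008 to 180019 RPM at CT15 and 139792 to 147393 at CT03 on LeuD, and their part was not tested. On Control the median was -0.07, with 13 of 46 above 0, but 0.02 without KO Control CT03 replicate 3; 0.0407% of genes were called, 1 member had an unadjusted p under 0.05 (12.3% of genes), and 1 member was higher (9.73% of genes) and 2 lower (10.1%) without overlap. The extremes were Psmd3 (-0.47 ± 0.19, and -0.30 without KO Control CT03 replicate 3) and Psmd5 (0.28 ± 0.14).

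Tests of whether the time change differed by diet or genotype called 0 members. In KO mice the difference by diet had a median of 0.18, with 37 of 46 above 0, against 0.01 over all genes (0% of genes called, 4 members against 6.45% of genes at an unadjusted p under 0.05). Scaled by total reads it was 0.02, with all genes at -0.15, and it was 0.11 without KO Control CT03 replicate 3 or without KO LeuD CT15 replicate 1. Psmd5 had -0.69 ± 0.19 with an interval of -1.118 to -0.27 (adjusted p = 0.631), Psmc4 had 0.62 ± 0.23 with 0.116 to 1.118 (adjusted p = 0.755), and Psma8 1.29 ± 0.61. In WT mice the median was 0.01, with 0 members at an unadjusted p under 0.05 (6.58% of genes, and 0.00686% called), and the extremes were Psmg3 (-0.25 ± 0.15) and Psmg4 (0.35 ± 0.22). Between genotypes on LeuD the median was 0.10, turning to -0.04 when scaled by total reads, with all genes at -0.13; 8 members were at an unadjusted p under 0.05 (9.42% of genes, and 0.0207% called), with the lowest p for Psmd1, at 0.47 ± 0.13 and an interval of 0.18 to 0.75 (adjusted p = 0.377), and Psma8 (1.16 ± 0.56) and Psmd5 (-0.43 ± 0.18) as extremes. Between genotypes on Control it was -0.04, and 0.06 without KO Control CT03 replicate 3 or without all libraries above 200 RPM of acinar markers, with 1 member at an unadjusted p under 0.05 (5.12% of genes, and 0.0275% called), Psmf1, the gene of a proteasome inhibitor, at -0.41 ± 0.17 (adjusted p = 0.977).

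Genes around the proteasome were read from lists of its partners. Calls of listed genes, here and in the next paragraph, come from the main fits only. Their values under the alternatives or with 1 library left out are not given, so their stability is not known. Between diets in WT at CT03, where 2.24% of all genes were called, 2 of the 8 measured of 10 other components were. Usp14, a deubiquitinase of the cap, was lower on LeuD (-0.45 ± 0.09, adjusted p = 0.0408) with 1012, 1052 and 1060 normalized counts, against 1325, 1508 and 1448 on Control. Zfand5, which binds and activates the proteasome, was higher there (0.68 ± 0.09, adjusted p = 0.0112), with 3487, 3203 and 3469 on LeuD, against 1946, 2185 and 2212 on Control. Fbxo32, a ubiquitin ligase gene known from muscle wasting, was also higher (1.19 ± 0.22, adjusted p = 0.0328), 1 called of 5 measured in its list of 6. Between times in WT mice on LeuD, where 9.61% of all genes were called, 2 of 8 other components, 2 of 5 of Fbxo32's list, 2 of 11 shuttle and ubiquitin genes and 1 of 9 of the NFE2L1 list were. Zfand5 (-0.64 ± 0.13, adjusted p = 0.0181), the ubiquitin receptor gene Adrm1 (-0.57 ± 0.11, adjusted p = 0.0141) and Fbxo32 (-0.66 ± 0.16, adjusted p = 0.0371) were lower at CT15 than at CT03, and so were the shuttle and ubiquitin genes Ubqln1 (-0.52 ± 0.11, adjusted p = 0.0194) and Rad23b (-0.41 ± 0.09, adjusted p = 0.0301). The ligase gene Fbxo31 was higher at CT15 in the same mice (1.01 ± 0.17, adjusted p = 0.00974). In the NFE2L1 list the ligase gene Syvn1 was lower (-0.81 ± 0.11, adjusted p = 0.00338), while Nfe2l1 itself had -0.18 ± 0.11 (adjusted p = 0.333) and was called in none of the 12 comparisons.

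The 3 immunoproteasome subunits, which replace the catalytic ones under interferon, had 0 calls. On Control at CT15 all 3 were lower in KO than in WT libraries without overlap, with changes of -1.49 to -0.67 (limma, lowest adjusted p = 0.791), where 6.73% of genes were lower in this way. Psmb9 had 134, 353 and 418 normalized counts in KO, against 834, 755 and 704 in WT, and KO Control CT15 replicate 1 was the lowest library for each of the 3. Macrophage and lymphocyte markers were lower in KO there too, as given above, and their part was not tested. On LeuD at CT15 in KO against WT their changes ran from -0.09 to 0.29. In that comparison 4 of 10 listed genes of interferon response and MHC class I processing were called, all higher in KO, where 1.89% of all genes were called. Among them were Isg15 (2.00 ± 0.35, limma, adjusted p = 0.0345), Ifit1 (2.67 ± 0.53, adjusted p = 0.0461) and Tap2 (0.67 ± 0.13, adjusted p = 0.0425). Over all 14420 genes, calls in that comparison fell from 273 to 24 without the libraries above 200 RPM of acinar markers. Of the 10 listed genes, 2 were below 0 in the main fit, the lowest at -0.07. In WT mice at CT03 Ifit1 was called lower on LeuD (-1.08 ± 0.19, adjusted p = 0.0304). In the comparisons not named here these lists had 0 calls. The activator genes Psme1 and Psme2 had 0.39 ± 0.14 and 0.02 ± 0.12 in KO against WT on LeuD at CT15, and Psme2 turned to -0.15 when scaled by total reads. Psme2b is a near copy of Psme2, and counting could split reads between them, so the values of both are uncertain.

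The promoters of 38 members were found in the RefSeq table by symbol; those of Psma8, Psmb1, Psmb2, Psmb7, Psmc3, Psmd3, Psmd7 and Psmg2 were not used here. The 250 bases before the start were searched on both strands. The core of the element bound by NFE2L1 and NFE2L2 (TGACNNNGC) was in 5 of 38, or 13.2%, against 11.5% of all genes searched. These were Psmb5, Psmb6, Psmc6, Psmd9 and Psmd12. CCAAT was in 13 of 38, or 34.2%, against 37.5% of genes. The E-box CACGTG of the clock activators was in 3 of 38, Psma4, Psmd9 and Psme3, or 7.89%, against 6.86% of genes. The D-box TTANGTAA was in 0, against 2.44% of genes. The composite element TGATGNAA read by ATF4, which acts after GCN2, was in 1, Psmd13, or 2.63%, against 3.91% of genes. In the 4 promoters printed above no match overlapped another, since each held at most 1.

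In the authors' deposited tables, which rest on the same reads, 12 values of 8 members had an adjusted p under 0.05, in 7 of the 10 tables. Among all genes, the authors' deposited adjusted p was under 0.05 for 6.06% in WT on Control, 13.7% in WT on LeuD, 2.42% in KO on Control and 5.66% in KO on LeuD between times. Between diets the authors' deposited shares were 6.52% in WT at CT03, 3.47% in WT at CT15, 3.49% in KO at CT03 and 4.71% in KO at CT15, and between genotypes on Control 0.647% at CT03 and 0.319% at CT15. All 4 calls above in comparisons with a table were among them. In the authors' deposited tables Psmd11 was also lower at CT15 in WT on Control (-0.57, adjusted p = 0.00098) and in KO on LeuD (-0.72, adjusted p = 0.00608). Psmd14 was lower on LeuD there in WT at CT15 (-0.65, adjusted p = 0.00585) and in KO at CT03 (-0.56, adjusted p = 0.0105), in the authors' deposited tables. Psmb7 and Psmd2 in WT at CT03, Psma1 in WT at CT15 (all lower on LeuD) and Psmc3 in KO at CT15 (higher) completed the authors' deposited calls.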

How the data were processed

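RNA of 24 mouse livers was sequenced after oligo(dT) selection and NEBNext Ultra II library preparation, per the labels' protocols. The submitters' processing notes name Trimmomatic 0.36, STAR 2.5.2b, featureCounts, Subread 1.5.2, DESeq2, DESeq and GRCm39; no annotation or strand setting is given in the sources used here. The authors deposited 10 tables, each for a pair of groups, with the signal of 6 libraries (normalized counts, that is counts over each library's size factor), a log2 fold change and p-values. Per the labels, each library is 1 of 3 biological replicates of a group.

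Whole reads were recovered from these signal columns in all but 2 of the deposited columns, with 100% of values within 0.01 of a whole number, and 498062 gene counts recovered again from another table differed from the first in 0 cases. The 24 libraries were put on 1 scale, which held the 14420 genes with a value in all of them, a count of 0 included. Its size factors came from those of these genes with a count above 0 in every library. This scale gave the printed levels and the KO to WT comparisons on LeuD, which are in no table. The other changes came from the tables' own scale, with a pseudocount of 1, limma 3.58.1 with a trend, and Benjamini-Hochberg adjustment over all genes. Differences of changes used 12 libraries and genes with a mean of at least 10. No filter on level was put on the 12 direct comparisons. The KO to WT comparisons on LeuD held only the 14420 genes with a value in all libraries, while the others held 14674 to 15073. Because size factors were set within tables, a fold change assumes that most genes did not change. Alternatives were a pseudocount of 10, a mean of at least 50, TMM factors, a fit of all 24 libraries, edgeR 4.0.16 on the reads, a replicate block, leaving out libraries above 200 RPM of acinar markers or 1 library at a time, and scaling by total reads, chosen after seeing the data. edgeR called 0 to 1376 genes in the 12 direct comparisons, and limma 0 to 1424. The fits were tested on simulated data. R 4.3.3 and Python 3.11.15 were used.

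Each comparison names its called members and those with the largest positive and negative change; a set of catalytic, cap, chaperone and activator genes may be named anywhere. Members and lists were chosen with earlier results of these data known. The result of 1 listed gene is not reported here.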

Additional observations from a re-analysis of the deposited data

How the results depend on the processing

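Of 274 alternative counts of called members, 238 stayed within 1.5 times the reported one. Most comparisons had 0 calls, and there a 0 that stayed 0 counts as unmoved, so this does not measure the stability of calls. With TMM factors, the fit of all 24 libraries and scaling by total reads, the time comparison in WT on Control had 1 call in place of 0. In WT on LeuD it had 1 call in place of 3 with all 24 libraries or without the acinar-rich library, 7 with total reads, and 1 to 2 with 1 library left out. The fit of all 24 libraries gave 3 calls in place of 0 for time in KO on LeuD, 1 in place of 0 for diet in KO at CT03, 7 in place of 0 for diet in KO at CT15, 8 in place of 1 for genotype on LeuD at CT15, and 0 in place of 1 for diet in WT at CT03. The last comparison had 2 calls with total reads and 0 to 0 with 1 library left out. Genotype on LeuD at CT15 had 0 calls with TMM factors, edgeR, total reads, without the acinar-rich libraries, and with 1 library left out (0 to 0), and genotype on LeuD at CT03 had 0 to 4 with 1 left out. The cause of these moves was not tested. The shares of all genes called in these alternative fits are not given, so the counts of members cannot be judged against them.

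Replicate numbers were not used to pair the mice in the main fits. No comparison had all 3 same-number correlations over 0.1. Single values ran from -0.50 (genotype, LeuD at CT15, replicate 3) to 0.50 (time, KO on Control, replicate 2). Whether mice of the same number shared their handling was not tested. With the replicate block, 1 member was called for time in WT on LeuD, 0 for diet in WT at CT03 and 0 for genotype on LeuD at CT15; it changed no other count of calls.

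Of 1125 alternative values of named genes, 12 changed sign, none of them in a called result. With 1 library left out, values ran from -0.0545 to 0.60 for Psmc3ip (diet, KO at CT03), from -0.0278 to 0.25 for Psmd1 (genotype, Control at CT03), from -0.0309 to 0.47 for Psma8 (genotype, Control at CT03), from -0.0494 to 0.00316 for Psmb5 (diet, WT at CT03), from -0.0945 to 0.0819 and from -0.0833 to 0.0277 for Psmb6 (diet, WT at CT03 and CT15), and from -0.0684 to 0.0899 for Psme2 (genotype, LeuD at CT15). Without the acinar-rich libraries that of Psmd1 was -0.0278, and with total reads that of Psme2 was -0.15. The negative values of Psmc3ip and Psmd1 came without KO Control CT03 replicate 3. With 1 library left out, 28 of 76 named values moved by over 1.5 times at least once, none of them a called one. Psma8 and Psmc3ip had under 50 normalized counts on average.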
